A study of Capra hircus and Bos taurus with 7 samples.

Results

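The miR-26 family was followed through extracellular vesicles, small particles enclosed in membrane that cells shed into fluids such as milk, isolated from reconstituted milk powders. Every row of the deposited tables named bta-miR-26a, bta-miR-26b or bta-miR-26c was taken, on any arm, which gave 3 of the 364 mature microRNA (miRNA) names; the bovine prefix bta is left out below. None of the 3 names carries an arm. The 7 small RNA libraries came from powder labelled whole (goat, Capra hircus, 3 libraries, letters A to C), powder labelled skimmed (goat, 3 libraries, letters A to C) and a commercial bovine powder (Bos taurus, 1 library). All powders were dissolved in warm water and their vesicles separated by size exclusion chromatography. The labels name no breed, animal, herd, producer or lot. They do not tell whether a letter marks a separate pack or a repeat isolation from 1 powder, so the spread behind each p-value is that of these libraries and may be technical.

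miR-26 is an old, widely expressed vertebrate miRNA family whose main members, miR-26a and miR-26b, share their seed, the stretch at the 5′ end that selects target mRNAs. Their hairpins lie in introns of the CTDSP genes, which encode small phosphatases that act on the carboxy-terminal domain of RNA polymerase II, and the miRNAs are made together with these hosts. Known targets include EZH2, a histone methyltransferase. In goat mammary epithelial cells the family and its host genes have been studied as regulators of milk fat synthesis. In the RefSeq annotation of the goat assembly ARS1.2, MIR26A lies within CTDSPL, between ITGA9 and VILL, and MIR26B lies within CTDSP1, between VIL1 and SLC11A1. The sources used here do not give the build behind the deposited counts, so no coordinates are printed. No sequence of the members was in the sources used here, so none is printed.

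The vesicles of both goat powders were rich in miR-26. In the goat libraries the 3 names together held 6.38% ± 0.732 of all miRNA reads (SD, n = 6). Most of this was miR-26a and miR-26c, and miR-26b supplied between 11.9% and 14.6% of the family's reads in each goat library. Levels are given in counts-per-million (CPM), a row's estimated reads relative to the sum over all 364 names of the library. Library totals ran from 5675489 reads in the bovine library to 11963849 in whole C, so counting error was small beside the spread between libraries for all 3 rows.

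bta-miR-26a, the most abundant row of the family, stood at 40798, 33887 and 43106 CPM in whole libraries A, B and C. In skimmed libraries A, B and C it stood at 31465, 36170 and 35270 CPM, and in the bovine library at 28933 CPM. Whole A and whole C lay above all other libraries, whole B lay inside the skimmed range, and the bovine library was the lowest of the 7. miR-26a ranked 8th to 11th among the 364 names in each library.

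bta-miR-26c, a name used for ruminants, stood at 20349, 16919 and 21518 CPM in whole A, B and C, at 15717, 18071 and 17617 CPM in skimmed A, B and C, and at 14464 CPM in bovine. The libraries fell in the same order as for miR-26a. The 2 rows were tied by an exact rule: in each of the 7 libraries the estimated count of miR-26a equalled 2 times that of miR-26c plus a whole number of reads, to within 0.001 reads. None of the 3 members had a whole number of reads in any library. The relation is what an equal division of shared reads among 3 entries would give if 2 of them carried the name miR-26a; the sources used here do not state how reads were divided. The rows of miR-26a and miR-26c are therefore not separate measurements, and their sum is used below. Among 8010 ordered pairs of the 90 names that averaged 300 CPM or more in goat, only 1 other pair had such a rule, in which miR-3600 equalled miR-22-3p plus a whole number of reads. That search was made after the miR-26 relation had been seen, and names under 300 CPM were left out of it. Some of those names also had equal values in all 7 libraries, such as miR-3613a and miR-3613b, or miR-148c and miR-152. Rows tied to each other are thus not particular to the family.

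bta-miR-26b, made from the CTDSP1 locus, was the smaller member. Its level was 10484, 8663 and 8759 CPM in whole A, B and C, 7147, 8404 and 8640 CPM in skimmed A, B and C, and 8910 CPM in bovine. Whole A stood highest and skimmed A lowest, with the other 5 libraries between 8404 and 8910 CPM. It ranked 20th to 26th of the 364 names.

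Counted together, miR-26a and miR-26c moved up in the order of goat vesicle miRNAs from the 10th place of miR-26a alone to the 6th of 363. No other rows were summed for this order, although those of miR-3600 and miR-22-3p are tied as well. The sum was 61147, 50806 and 64623 CPM in whole A, B and C, 47182, 54241 and 52887 CPM in skimmed A, B and C, and 43397 CPM in bovine. Its mean over the goat libraries was 55148 ± 6542 CPM (SD, n = 6). Just above it stood miR-30d, at 58164 ± 3953 CPM, and miR-30a-5p, at 59326 ± 16263 CPM, and just below it miR-148a, a miRNA long known from milk, at 52288 ± 9324 CPM, and let-7b, at 51352 ± 13862 CPM. The order among these 5 did not hold from library to library: miR-30d was above the sum in 4 of 6 goat libraries, miR-30a-5p in 3, and miR-148a and let-7b in 2 each. Around miR-26b, at 8683 ± 1067 CPM, stood miR-16b at 9589 ± 649 CPM and miR-30f at 9002 ± 2434 CPM above, and miR-3600 and miR-22-3p at 7819 ± 1304 and 7798 ± 1306 CPM below. miR-16b was above miR-26b in 5 of 6 goat libraries and miR-30f in 2, while miR-3600 and miR-22-3p were each above it in 1.

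Powder labelled skimmed was compared first with powder labelled whole. No member rose or fell. With miR-26a and miR-26c summed, the pair averaged 58859 ± 7187 CPM in whole powder against 51436 ± 3746 in skimmed (SD, n = 3 each), and the ranges overlapped. Fitted across all miRNAs, the log2 fold change, skimmed minus whole, was -0.18 ± 0.14 (SE; 95% interval -0.49 to 0.14), and edgeR's quasi-likelihood test gave an adjusted p = 0.83 (Benjamini-Hochberg, 208 miRNAs). The interval corresponds to a ratio of skimmed to whole between 0.711 and 1.10, and changes of that size in either direction could not be resolved with these libraries. As deposited, before summing, the rows of miR-26a and miR-26c each gave -0.11 (SE 0.14 and 0.13; edgeR adjusted p = 0.94 for both). Summing also moved the median over all tested miRNAs, from 0.03 to -0.03. Scaled by library totals, both rows and the sum gave -0.19. Of all 209 rows tested, 0.478% were called, 1 row, which was higher in skimmed, and DESeq2's Wald test, which called 5.94% of 202, called 0 of the 3 members. In edgeR 22 of the 209 had an unadjusted p under 0.05, and 0 of these were members. With miR-26a and miR-26c summed, no row passed in edgeR, and the lowest adjusted p was 0.063, for miR-25.

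The mean of miR-26b was 9302 ± 1025 CPM for whole and 8064 ± 802 CPM for skimmed powder (SD, n = 3 each). All 3 whole libraries lay above all 3 skimmed libraries, as did those of 22 of the 209 tested miRNAs, or 10.5%; in either direction the powders did not overlap for 42 of the 209, or 20.1%. The gap lay inside counting error: whole B, the lowest of its powder, at 8663 CPM had a 95% Poisson interval of 8606 to 8721 CPM, and skimmed C, the highest of its powder, at 8640 CPM had one of 8576 to 8705 CPM. After TMM scaling, edgeR's adjustment for differences in composition, the whole libraries ran from 8118 to 10297 and the skimmed from 7701 to 8663 scaled CPM, and the powders overlapped. The log2 fold change was -0.12 ± 0.12 (SE; 95% interval -0.40 to 0.16) with the rows as deposited and -0.19 ± 0.12 with miR-26a and miR-26c summed (edgeR adjusted p = 0.92 and 0.72). The exact two-sided permutation test on CPM gave p = 0.1, the smallest that 3 against 3 libraries allow.

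**Figure D1:**
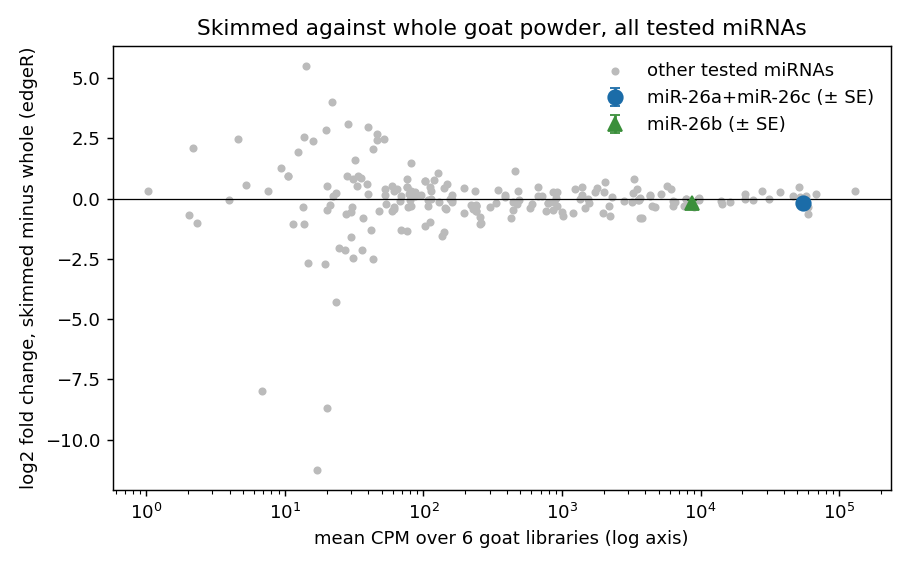
Log2 fold change of skimmed minus whole goat powder (edgeR, miR-26a and miR-26c summed) against mean CPM on a log axis, one point for each of the 208 tested miRNAs; bars on the 2 family points are ± 1 SE. Both points, at -0.18 and -0.19, lie just below 0, where abundant miRNAs are tightly grouped and miRNAs under 100 CPM are spread widely.

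As a share of all miRNA reads the family took 7.16%, 5.95% and 7.34% in whole A, B and C and 5.43%, 6.26% and 6.15% in skimmed A, B and C. Whole B lay among the skimmed libraries, and the skimmed mean was lower than the whole mean by a margin that did not pass (-0.87 percentage points; exact two-sided permutation p = 0.3). The family was about as even across the goat libraries as other abundant miRNAs. The highest goat library held 1.37 times the lowest for miR-26a plus miR-26c and 1.47 times for miR-26b, against a median of 1.53 and a range of 1.10 to 3.11 over the 63 names that averaged 1000 CPM or more. This placed the sum 17th and miR-26b 25th from the most even, as a description without a test.

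**Figure D2:**
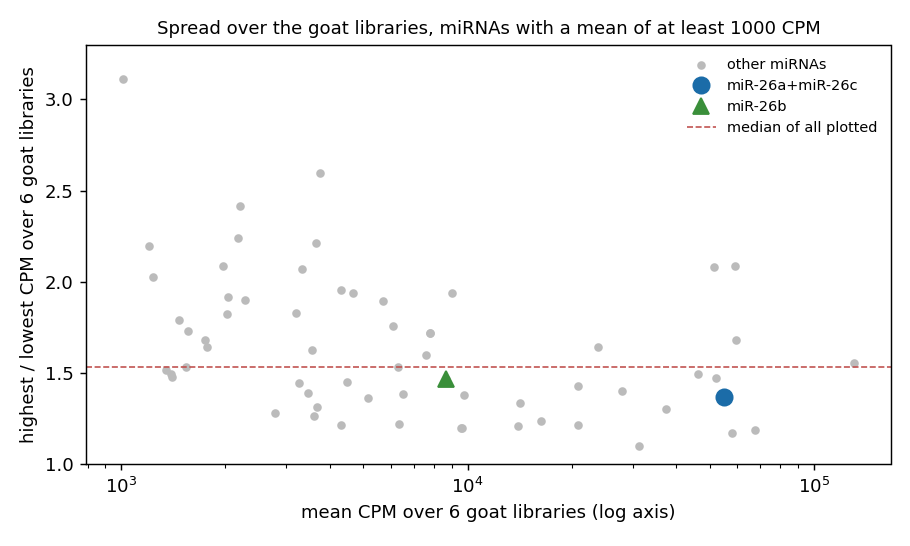
Ratio of the highest to the lowest CPM over the 6 goat libraries against mean CPM on a log axis, one point for each of the 63 names that averaged 1000 CPM or more; the dashed line is their median, 1.53. miR-26a plus miR-26c, at 1.37, and miR-26b, at 1.47, both lie under the line.

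The balance between the members did not separate the goat powders. For each 100 reads of miR-26a plus miR-26c there were 17.1, 17.1 and 13.6 reads of miR-26b in whole A, B and C, and 15.1, 15.5 and 16.3 in skimmed A, B and C. All 3 skimmed libraries lay between whole C and the other two whole libraries. The mean log2 ratio was -2.66 ± 0.19 in whole and -2.68 ± 0.06 in skimmed (SD, n = 3 each; exact two-sided permutation p = 1), and the difference between powders, -0.02, turned positive without whole A (0.042), without whole B (0.038) and without skimmed A (0.0077). In the bovine library there were 20.5 reads of miR-26b for each 100 (exact Clopper-Pearson 95% interval 20.3 to 20.7), above all 6 goat libraries. In CPM, bovine lay outside the goat range for 76.2% of the 63 names that averaged 1000 CPM or more in goat. No such share was computed for ratios. The ratio of miR-26b to the sum is taken inside a library and does not depend on scaling between libraries. It may depend on how reads were divided among names, which the sources used here do not state. The counts of miR-26b, too, were fractions in every library, and the interval was computed on rounded counts.

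The whole-number part of miR-26a, the reads beyond 2 times miR-26c, was a small quantity that differed more between libraries than the rows themselves. It came to 650, 488 and 847 reads in whole A, B and C, to 281, 236 and 293 reads in skimmed A, B and C, and to 30 reads in bovine. In CPM this was 99.1, 48.1 and 70.8 in whole, 30.3, 28.5 and 36.8 in skimmed, and 5.29 in bovine (95% Poisson interval 3.57 to 7.55). All whole libraries lay above all skimmed libraries, and the bovine library lay below both. Of the 209 tested miRNAs, 10.5% likewise did not overlap and were lower in skimmed, and 20.1% did not overlap in either direction. In bovine, 49.2% of the 63 names that averaged 1000 CPM or more in goat lay below the goat range. The same order of powders held for the reads beyond 2 times miR-26c as a share of miR-26a plus miR-26c. They made up 0.122% ± 0.0354 in whole, 0.0621% ± 0.00875 in skimmed (SD, n = 3 each) and 0.0122% in bovine. The exact two-sided permutation p was 0.1, the smallest possible. Fitted as a row of its own beside the shared part, the remainder gave -1.21 ± 0.92 (log2 fold change ± SE) and did not pass (edgeR, 209 rows, adjusted p = 0.83). This quantity was taken up after its values had been seen. Which reads it holds is not given by the deposited tables.

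**Figure D3:**
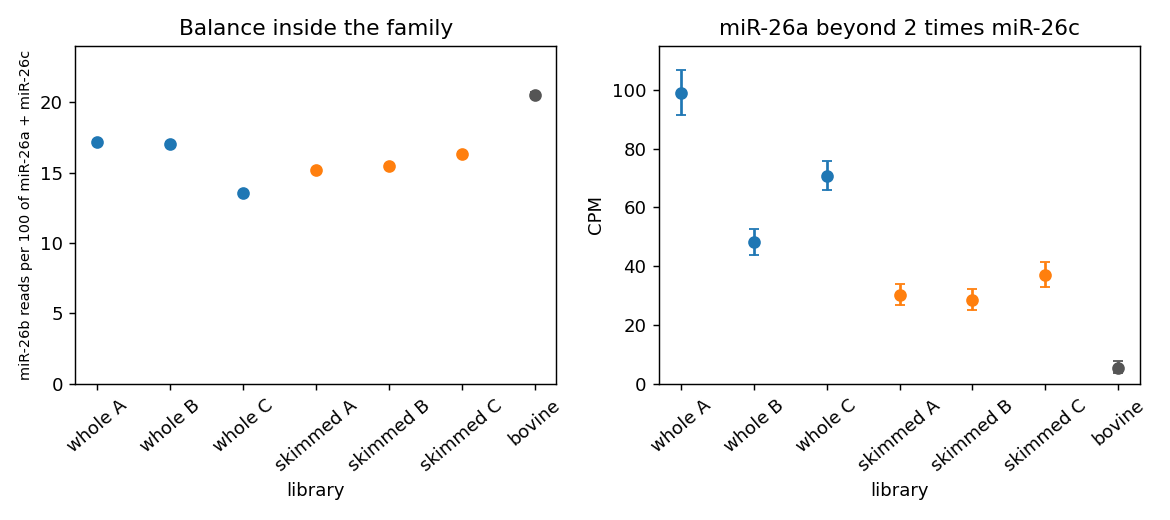
Left, miR-26b reads per 100 reads of miR-26a plus miR-26c in each library, with exact 95% intervals that are mostly smaller than the points; right, CPM of the miR-26a reads beyond 2 times miR-26c, with 95% Poisson intervals (whole blue, skimmed orange, bovine grey). On the left the bovine library, at 20.5, is above every goat library. In CPM, bovine lay outside the goat range for 76.2% of the 63 names that averaged 1000 CPM or more in goat. On the right the whole libraries, from 48.1 to 99.1 CPM, lie above the skimmed ones, from 28.5 to 36.8 CPM, and the bovine library is at 5.29 CPM. Whole lay above skimmed without overlap for 10.5% of the 209 tested miRNAs.

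The second comparison set the bovine powder beside the goat powders. With 1 library, species, product and library cannot be told apart, and no test was made. miR-26a plus miR-26c reached 43397 CPM in bovine (95% Poisson interval 43225 to 43568), below the goat range of 47182 to 64623 CPM and 0.787 times the goat mean, a log2 difference of -0.35 that turned to 0.11, inside the goat range, with TMM scaling over all 7 libraries. Among the 63 names with at least 1000 CPM in goat, 49.2% lay below the goat range in bovine, and the median log2 difference was -0.37 in CPM and 0.09 with TMM scaling, so the sum lay close to the middle of abundant miRNAs on either scale. miR-26b, at 8910 CPM in bovine (95% Poisson interval 8832 to 8988), was inside the goat range of 7147 to 10484 CPM and 1.03 times the goat mean; with TMM scaling its log2 difference went from 0.04 to 0.50, above the goat range. As 76.2% of the 63 names lay outside the goat range in bovine in CPM, a place outside it is common on that scale and is not particular to the family. That share was not computed with TMM scaling, the scale on which miR-26b lay outside.

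**Figure D4:**
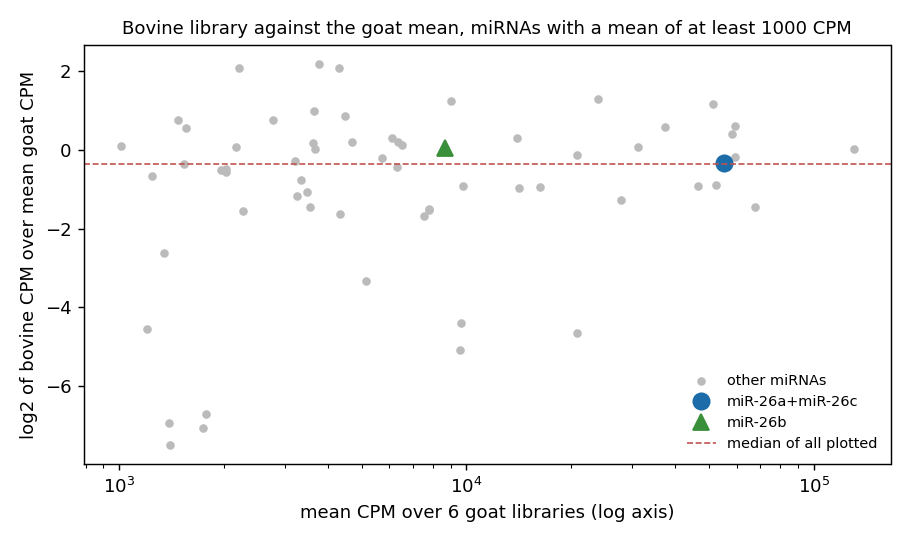
Log2 of bovine CPM over mean goat CPM against mean goat CPM on a log axis, for the 63 names that averaged 1000 CPM or more in goat; the dashed line is their median, -0.37. miR-26a plus miR-26c, at -0.35, lies on the line, and miR-26b, at 0.04, lies above it, while several miRNAs are lower by far in bovine.

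The miRNAs whose levels went most closely with the family over the 6 goat libraries were then listed, among 124 others that averaged 100 CPM or more, by Pearson's r of log2 CPM (pseudocount 1 CPM). These are descriptions over 6 libraries that share their totals, with no test. For miR-26a plus miR-26c the first were miR-6715 (r = 0.96), miR-27a-3p (0.90), miR-29a (0.90), miR-378 (0.90) and miR-186 (0.90). Of these, miR-6715 had 206 ± 146 CPM in whole against 77.8 ± 34.5 in skimmed. miR-27a-3p, which acts on lipid metabolism genes, had 1452 ± 216 and 956 ± 196 CPM. miR-378, which lies in an intron of the metabolic coactivator gene PPARGC1B, had 905 ± 161 and 618 ± 81.5 CPM. For miR-26b the first were miR-186 (r = 0.94), miR-200a (0.92), miR-27a-3p (0.89), miR-28 (0.86) and miR-10174-3p (0.84). Here miR-200a, of the epithelial miR-200 family, had 7015 ± 647 CPM in whole against 5596 ± 569 in skimmed, and miR-186 had 6636 ± 406 and 6051 ± 241 CPM (SD, n = 3 each). None of the miRNAs with levels given here passed in edgeR. With rows as deposited, its adjusted p was 0.38 for miR-27a-3p, 0.52 for miR-378 and miR-200a, 0.64 for miR-6715 and 0.96 for miR-186. These miRNAs were picked for likeness to the members over the same libraries, so their lower skimmed means are not separate results. The members of the family were not each other's nearest: with r = 0.73, miR-26b was 15th for the sum and the sum 11th for miR-26b.

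Other miRNAs that act on the same processes were read from 2 lists. In a list of miRNAs studied in mammary lipid synthesis, 23 of 27 names had a row and 22 were tested. With rows as deposited, 1 of these rose in skimmed, miR-25 (edgeR log2 fold change 0.87, SE 0.13, adjusted p = 0.035), and 0 fell. The other 21 did not pass; 16 of the 22 had values below 0, with a median of -0.25, against a median of 0.03 and 45.9% of values below 0 over all 209 tested. Its most abundant members were miR-21-5p, at 66912 ± 6311 CPM in whole and 51906 ± 9773 in skimmed, miR-148a, at 51332 ± 11554 and 53245 ± 9007 CPM, and miR-23a, at 15426 ± 925 and 12945 ± 825 CPM. In a list of miRNAs that, like miR-26, are known to repress EZH2, 9 of 13 names had a row and 8 were tested. miR-25, which is on both lists, again was the 1 that rose, 0 fell, and the median was 0.37 with 2 of 8 values below 0. It was led by let-7a-5p, at 117668 ± 13203 CPM in whole and 143485 ± 13674 in skimmed, let-7b, at 43748 ± 7521 and 58957 ± 15822 CPM, and let-7c, at 5375 ± 539 and 6822 ± 1339 CPM. miR-101, a textbook EZH2 repressor, went from 1180 ± 203 CPM in whole to 804 ± 310 in skimmed and did not pass (edgeR log2 fold change -0.47, SE 0.29, adjusted p = 0.65). The miR-25 call did not hold when any library but skimmed A was left out: edgeR's adjusted p was 0.072 without whole A, 0.16 without whole B, 0.082 without whole C, 0.24 without skimmed B and 0.12 without skimmed C. It also went past 0.05 with the replicate letter as a block (0.11), upper-quartile scaling (0.075), library totals (0.059) and DESeq2 size factors (0.058). The same held with miR-26a and miR-26c summed (0.063) and with let-7a-5p left out (0.057). The call stood with DESeq2's Wald test (adjusted p = 0.00014), limma-voom (0.037) and, in edgeR, without the miR-26c row (0.032). It stood as well without the low-count filter (0.028) and with a mean of at least 100 CPM (0.011).

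Markers of the cells that may release such vesicles were present as follows. Of 8 epithelial miRNAs 7 had a row, with a summed level of 98499 to 103801 CPM in whole, 104578 to 113778 CPM in skimmed and 106493 CPM in bovine. All 7 leukocyte miRNAs had a row, at 5617 to 6961, 5850 to 7631 and 1393 CPM in whole, skimmed and bovine. Stromal and endothelial miRNAs (4 of 8 with a row) summed to 1492 to 1654, 1690 to 2458 and 17.4 CPM. Muscle, liver and nerve miRNAs (5 of 11 by exact name) reached at most 309 CPM and the 1 erythroid miRNA of 3 with a row, miR-486, at most 72.8 CPM, both in goat. The nerve marker listed as miR-9-5p had no row of that exact name. A row named miR-9, with a goat mean of 21.3 CPM, was not counted in that sum. miR-126-3p, of endothelium, was at 0 in all whole libraries and in bovine. In skimmed powder it averaged 21.3 ± 21.8 CPM (SD, n = 3), with skimmed C at 0. In these bulk vesicle preparations, fewer vesicles from a cell type and less of a miRNA in each vesicle cannot be told apart. The epithelial sums did not overlap between the goat powders, nor did the stromal and endothelial sums, while 20.1% of the 209 tested miRNAs did not overlap in either direction. The stromal and endothelial sum was mostly miR-143 (1510 ± 36.7 CPM in whole, 2038 ± 387 in skimmed), which did not pass (edgeR adjusted p = 0.12). The higher skimmed epithelial sum rested on 2 of its 7 members, miR-200c (34336 ± 566 CPM in whole, 40434 ± 3549 in skimmed) and miR-375 (25161 ± 1291 and 30579 ± 2844). The other 5 had lower means in skimmed, 4 of the 7 fitted log2 fold changes were below 0 with a median of -0.09, and 0 passed in edgeR. The part of these markers in the miR-26 values was not tested.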

How the data were processed

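Small RNA of milk powder vesicles was sequenced in 7 libraries; per the labels' protocols, RNA was extracted with a kit, libraries were gel-purified and single-end reads of 50 bases were made. The deposited tables hold estimated counts per mature miRNA under bovine names, not normalized, many of them fractions; the aligner, the counter, the reference and the build are not stated in the labels or headers used here. How goat reads that differ from bovine sequences were treated is likewise not given, which could affect goat and bovine levels differently.

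CPM was computed over all 364 names. For tests the estimated counts were rounded, filtered with edgeR's default (209 names kept), TMM-scaled and tested with edgeR 4.0.16 (R 4.3.3) without a block, at an adjusted p of 0.05; a second table had miR-26a and miR-26c summed. The SE is the fold change divided by the square root of F. DESeq2 1.42.0 was run on the same names without independent filtering, and limma 3.58.1 with voom. The edgeR and voom fits were also run on simulated data, with the outcome not reported here. Single values used exact permutation tests (scipy 1.17.1). The Poisson and Clopper-Pearson intervals cover counting error only. Amplified reads with no molecular identifiers do not stand for independent molecules, so these intervals may be too narrow. The intervals of the log2 fold changes come from the edgeR fit and include the spread between libraries.

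Members, lists and rules were chosen with earlier results of these data known. miRNAs named are the members, the nearest 2 above and below in abundance, the 5 most correlated, and of the lipid and EZH2 lists the 3 most abundant tested members and any that passed. Named after their values were seen were miR-101, miR-486, miR-126-3p, miR-10b, miR-145, miR-9, miR-143, miR-200c, miR-375 and the pair miR-3600 and miR-22-3p as an exact pair. The same goes for the equal rows of miR-3613a and miR-3613b, and of miR-148c and miR-152. The remainder of miR-26a and the fold range were also added then.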

Additional observations from a re-analysis of the deposited data

How the results depend on the processing

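The log2 fold changes of the family between goat powders stayed below 0 and their adjusted p stayed above 0.05 under the alternatives run: from -0.28 to -0.01 for miR-26a plus miR-26c (15 alternatives; adjusted p 0.42 to 1.00), and, with rows as deposited, -0.27 to -0.03 for miR-26b, -0.26 to -0.01 for miR-26a and -0.25 to -0.01 for miR-26c. With upper-quartile scaling miR-26b had -0.30 in the summed table and -0.31 with the remainder as a row of its own (unadjusted p 0.043, adjusted 0.39 in edgeR). The value nearest 0 for the sum came without whole C and for miR-26b without whole A. Upper-quartile scaling moved the median of all miRNAs by -0.11 against TMM; relative to that median the sum stood at -0.14 to -0.15 under each of 4 scalings. The number of miRNAs called went from 1 to 0 with upper-quartile scaling, library totals, DESeq2 size factors, the replicate block or let-7a-5p left out. It also went to 0 with miR-26a and miR-26c summed, where the lowest edgeR adjusted p was 0.063. The number was 2 without the low-count filter, 4 with a mean of at least 100 CPM and 12 with DESeq2's Wald test. With 1 library left out it ranged from 0 to 1. The remainder of miR-26a kept its direction (-1.36 to -0.84), and the family share differed by -1.30 to -0.61 percentage points with 1 library left out. The skimmed minus whole difference in the log2 ratio of miR-26b to the sum ranged from -0.128 to 0.0420 with 1 library left out. With TMM over 7 libraries the bovine log2 difference became 0.11 for the sum and 0.50 for miR-26b. With the replicate block (letters as pairs), the sum had -0.17. The labels do not tell whether libraries with the same letter belong together. Deviations of the same letter correlated at -0.09, 0.07 and 0.37 for A, B and C across 126 miRNAs, and only letter C was nearest its own. Taken around means of 3 libraries, these values do not settle whether the letters are pairs. The cause of these shifts was not tested. Counting error matters for the remainder, at 30 to 847 reads, and for the narrow gap in miR-26b between whole B and skimmed C.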
